A study of Mus musculus with 20 samples.

Results

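The TEAD and Hippo pathway genes, 10 in number, were followed in mouse liver RNA. The read count table has 29915 gene rows, of which 10 carry these symbols, and each symbol was found once. The transcription factors are Tead1, Tead2 and Tead3, the coactivators are Yap1 and Wwtr1 (the gene of TAZ), the kinases are Lats1 and Lats2, and Amotl2, Ctgf (now Ccn2) and Cyr61 (now Ccn1) are genes that YAP and TAZ are known to switch on. Tead1 was chosen by its measured levels, which moved from library to library with those of AK083547. That clone row of the table was taken in the choice as a clone transcript of Prox1. The other 9 genes were chosen as pathway partners of Tead1. The covariation of Tead1 with AK083547 is therefore given as a description, without a test.

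The livers came from male mice fed regular chow, with lights on for 12 h and off for 12 h. Cre recombination at 8 weeks of age switched the knock-in allele on, and livers were taken 11 weeks later at ZT 15 to 17, that is, hours after lights on. The 4 groups of 5 samples were K556R refed, wild-type (WT) refed, K556R fasted and WT fasted. K556R is a form of the transcription factor Prox1 that cannot be SUMOylated at the changed lysine, expressed in hepatocytes; the Cre driver is not named in the sources used here. Wild-type samples are titled Ctrl and K556R samples Cre, so any effect of Cre itself cannot be told apart from that of K556R. The labels number the samples as repeats and do not say how repeats relate to animals, so p-values speak only of the spread among these libraries.

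In the Hippo pathway the MST kinases, held by the scaffold Sav1, activate the LATS kinases, which phosphorylate YAP and TAZ and keep them out of the nucleus. Unphosphorylated YAP and TAZ enter the nucleus, bind DNA through TEAD factors, and switch on genes that include Ctgf, Cyr61, Amotl2 and Lats2. Amotl2 and Lats2 proteins restrain YAP in return, which closes a feedback loop, and in the liver the pathway is known for its control of organ size and of hepatocyte and bile duct cell identity.

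RefSeq promoter windows (GRCm38.p6, 250 bases before to 50 after each annotated start) were matched for 8 of the 10 genes, in 12 windows, and show where the letters bound by TEAD factors lie. The 4 windows below were picked among those that hold the letters, to set them side by side in 3 genes that were lower after refeeding in both genotypes (Amotl2, Lats2 and Yap1) and in Cyr61, which did not pass the test in either. All are written 5′ to 3′ on the strand of the gene, and capitals mark the TEAD letters GGAATG or their reverse complement CATTCC.
Amotl2, chr9:102717554-102717853, plus strand: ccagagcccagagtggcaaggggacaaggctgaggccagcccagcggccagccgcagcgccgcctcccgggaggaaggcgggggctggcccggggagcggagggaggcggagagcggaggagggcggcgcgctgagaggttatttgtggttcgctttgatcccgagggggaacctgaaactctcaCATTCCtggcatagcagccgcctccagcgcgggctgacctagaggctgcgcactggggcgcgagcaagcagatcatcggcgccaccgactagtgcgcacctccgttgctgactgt
Lats2, chr14:57746074-57746373, minus strand: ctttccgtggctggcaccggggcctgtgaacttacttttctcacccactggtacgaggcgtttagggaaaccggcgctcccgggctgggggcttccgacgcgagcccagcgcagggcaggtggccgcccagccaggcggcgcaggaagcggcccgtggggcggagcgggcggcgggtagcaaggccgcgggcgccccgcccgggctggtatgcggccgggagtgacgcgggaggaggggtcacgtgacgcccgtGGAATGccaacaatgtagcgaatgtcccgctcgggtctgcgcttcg
Yap1, chr9:8004547-8004846, minus strand: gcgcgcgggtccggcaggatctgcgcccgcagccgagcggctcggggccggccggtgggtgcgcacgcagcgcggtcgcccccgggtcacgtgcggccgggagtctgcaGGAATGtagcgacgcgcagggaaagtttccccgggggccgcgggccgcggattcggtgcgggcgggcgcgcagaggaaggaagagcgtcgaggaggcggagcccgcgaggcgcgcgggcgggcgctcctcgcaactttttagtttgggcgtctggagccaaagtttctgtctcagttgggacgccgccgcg
Cyr61, chr3:145649936-145650235, minus strand: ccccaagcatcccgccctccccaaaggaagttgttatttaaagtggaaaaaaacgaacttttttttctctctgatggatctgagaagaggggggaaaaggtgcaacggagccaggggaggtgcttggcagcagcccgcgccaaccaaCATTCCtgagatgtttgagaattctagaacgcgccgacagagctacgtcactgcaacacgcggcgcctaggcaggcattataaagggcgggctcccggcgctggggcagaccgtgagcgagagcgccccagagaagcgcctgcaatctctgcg
Counted from the start, the TEAD letters began at base −65 in Amotl2, −103 in Cyr61, −141 in Yap1 and 4 in Lats2. In all, 6 of the 8 genes had them in at least 1 window (Tead3, Yap1, Wwtr1, Lats2, Amotl2 and Cyr61), and Tead2 and Lats1 did not, nor did the second window of Lats2. Lats1 was lower after refeeding in both genotypes and Tead2 did not pass in either. Across the genome 14.7% of 32851 windows and 16.6% of 27025 genes held these letters on either strand. The AP-1 letters TGANTCA, in which N is any base and which read the same on both strands, were in none of the 12 windows, against 7.81% of all windows. The letters describe sequence only.

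In length-scaled levels, counts scaled to a common library total (CPM) per kilobase of annotated exon, Yap1 was the most abundant of the 10 genes. Over all 20 libraries it averaged 7.34 ± 0.598 CPM per kb (SD, n = 20). Lats1 followed at 5.16 ± 0.678, Amotl2 at 5.12 ± 1.71, Wwtr1 at 3.07 ± 0.660, Ctgf at 3.05 ± 2.68, Lats2 at 2.54 ± 0.687, Cyr61 at 2.44 ± 0.707, Tead1 at 1.53 ± 0.428 and Tead3 at 1.30 ± 0.146 CPM per kb. Tead2 was lowest at 0.137 ± 0.0262 CPM per kb, and its highest library (0.184) lay under the lowest library of every other gene. All other neighbours in this order overlapped in range over the 20 libraries. The order differed between groups: Ctgf ranked 8 in K556R refed, 9 in WT refed, 3 in K556R fasted and 4 in WT fasted livers, Cyr61 ranked 5, 4, 8 and 7 in the same groups, and Amotl2 stood above Lats1 in both fasted groups and below it in both refed groups. The fourth family member, Tead4, averaged 0.169 CPM and was too low to test. All 10 genes passed the filter on low counts, with 17 to 40 reads per library for Tead2 and at least 72 for the others.

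**Figure D1:**
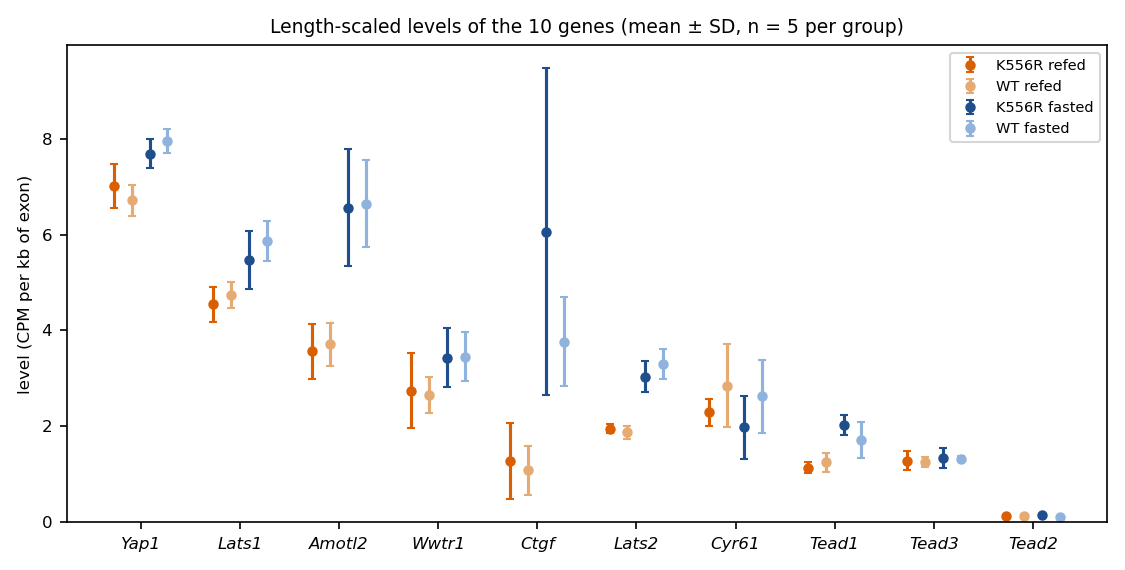
Length-scaled level (CPM per kb of exon, vertical axis) of each gene, ordered by its mean over 20 libraries. Points are group means and bars SD (n = 5 libraries per group). Yap1 stands highest at 7.34 CPM per kb over all libraries and Tead2 lowest at 0.137.

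Spread between libraries of a group differed widely between genes. The coefficient of variation of the CPM within a group was 3.22% to 6.51% for Yap1, 4.77% to 10.6% for Lats2 and 5.53% to 11.1% for Lats1, against 12.4% to 32.9% for Cyr61 and 24.6% to 61.4% for Ctgf. Fold changes of the kinases and of Yap1 are accordingly the more precise ones.

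Library totals were 33746054 to 50647297 counts, 14 libraries belonged to batch 1 and 6 to batch 2, and libraries are written here as repeat number and batch. K556R fasted 1_b1 and K556R refed 1_b1 stood apart on the second principal component, at −39.5 and −57.3, with the other 18 between −8.06 and 10.7. Summed lymphocyte markers were 16.4 and 12.7 CPM in these libraries, against at most 5.93 CPM in the others. Summed proliferation markers were 65.1 and 132 CPM in them, against at most 59.8 CPM in the others. Results that change without both libraries are given both ways. All 12 hepatocyte markers were tested, and Alb ranged from 75146 to 112080 CPM. As a check of the feeding labels, Fasn and Srebf1 were higher and Pck1, Igfbp1 and Angptl4 lower in refed livers of both genotypes. Prox1 averaged 75.5 ± 12.1 CPM in K556R refed and 110 ± 15.7 CPM in WT refed livers, and 105 ± 15.7 CPM in K556R fasted and 185 ± 38.6 CPM in WT fasted livers (SD, n = 5 each).

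How the pathway responds to feeding was addressed by comparing refed with fasted livers in each genotype. Of the 10 genes, 7 were lower in refed livers in each genotype and none was higher: Tead1, Yap1, Wwtr1, Lats1, Lats2, Amotl2 and Ctgf. Among all 13894 genes tested the share called was 39.9% in K556R livers (19.6% higher, 20.3% lower) and 45.1% in WT livers (20.9% higher, 24.2% lower). The median log2 change of the 10 genes was −0.37 in K556R and −0.34 in WT livers, beside 0.01 and −0.01 over all genes. For 5 of the 10 the refed and fasted libraries did not overlap, in the lower direction, in each genotype, where 14.1% of all genes did so in K556R and 18.7% in WT livers. With both libraries that stood apart left out, 5 were called in K556R livers, without Yap1 and Wwtr1, and 7 in WT livers. These counts include Tead1, which was chosen by its levels in these libraries. AK083547, which Tead1 followed, was itself lower in refed livers. Its log2 change was −0.51 ± 0.18 in K556R (adjusted p = 0.0315) and −0.50 ± 0.17 in WT livers (adjusted p = 0.0245). Prox1 was lower too (−0.54 ± 0.15 and −0.75 ± 0.14). The Tead1 calls are therefore not independent of that choice. In whole liver, fewer cells of a type and less RNA per cell cannot be told apart.

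**Figure D2:**
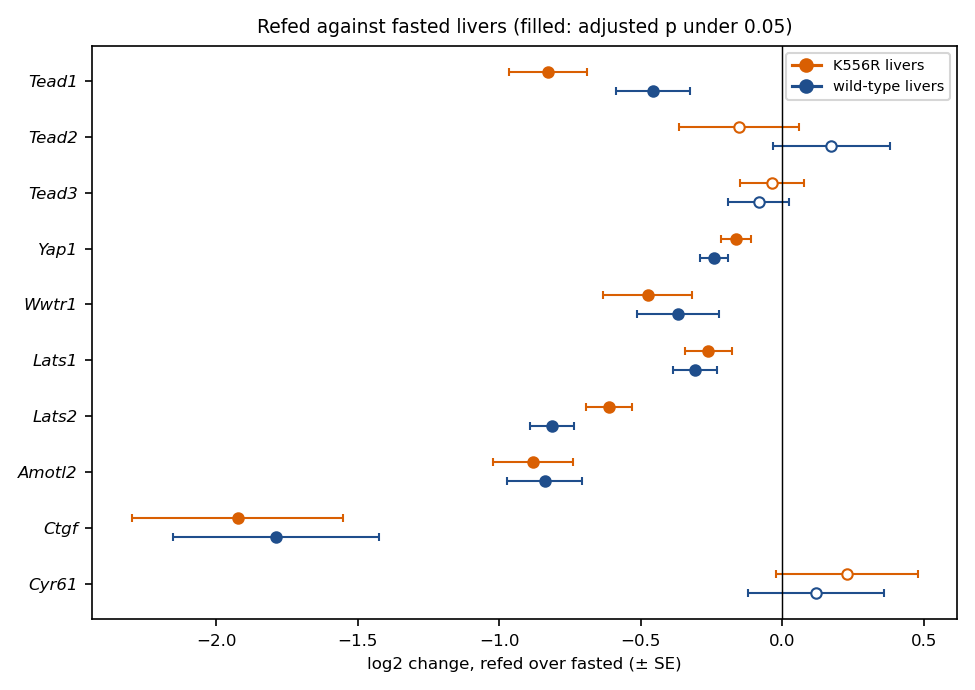
Log2 change of each gene in refed over fasted livers (horizontal axis, ± SE), in K556R (orange) and wild-type (blue) livers. Filled points have an adjusted p under 0.05: 7 genes lie left of 0 in both genotypes, and Tead2, Tead3 and Cyr61 are open.

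Ctgf, the secreted matrix protein commonly read as a YAP target, had the largest change of the 10. It stood at 7.48, 1.71, 2.35, 3.27 and 3.54 CPM in K556R refed livers, against 30.2, 11.0, 8.03, 12.3 and 25.3 CPM in K556R fasted livers (order 1_b1, 1_b2, 2_b1, 2_b2, 3_b2 for refed and 1_b1, 1_b2, 2_b1, 3_b1, 4_b1 for fasted). In WT refed livers it stood at 2.24, 1.90, 3.04, 2.74 and 5.57 CPM, against 12.9, 6.31, 11.7, 10.6 and 12.4 CPM in WT fasted livers (order 1_b1, 1_b2, 2_b1, 3_b1, 4_b1). Every refed library was below every fasted library of its genotype, and K556R fasted 1_b1 and 4_b1 were the highest of all 20. The same 2 libraries had the highest summed stellate and fibroblast markers, at 409 and 423 CPM, with the next at 350 CPM, and the part of these cells in the Ctgf level was not tested. Refed livers held 0.263 times the fasted level in K556R (log2 change −1.93 ± 0.37 SE, adjusted p = 0.000531) and 0.290 times in WT (−1.79 ± 0.36, adjusted p = 0.000639). Within batch 1 the log2 changes were −1.94 in K556R and −1.80 in WT livers, and within batch 2 they were −1.93 and −1.72 (adjusted p = 0.0945 for the WT value).

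Amotl2 and Lats2, the feedback members of the pathway, had smaller changes than Ctgf. Amotl2, an angiomotin-family protein that binds YAP and holds it at cell junctions, had 16.7, 21.4, 24.3, 25.7 and 24.0 CPM in K556R refed livers, against 34.5, 37.9, 39.0, 40.7 and 54.3 CPM in K556R fasted livers. In WT refed livers it had 21.7, 21.7, 27.5, 20.9 and 24.9 CPM, against 49.0, 41.0, 45.6, 34.3 and 39.1 CPM in WT fasted livers, all in the library order given for Ctgf. No refed library reached the lowest fasted one. Amotl2 changed by −0.88 ± 0.14 log2 in K556R (adjusted p = 5.42e-05) and by −0.84 ± 0.13 in WT livers (adjusted p = 3.4e-05).

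Lats2, a kinase that inhibits YAP and TAZ, had 13.0, 14.6, 13.0, 13.9 and 13.4 CPM in K556R refed livers, against 20.4, 18.1, 20.7, 22.4 and 24.1 CPM in K556R fasted livers. In WT refed livers it had 13.1, 13.1, 14.6, 12.1 and 12.4 CPM, against 22.3, 21.2, 22.9, 26.7 and 21.8 CPM in WT fasted livers. The 10 refed libraries spanned 12.1 to 14.6 CPM, below all fasted ones. The log2 change was −0.61 ± 0.083 in K556R (adjusted p = 8.18e-06) and −0.81 ± 0.078 in WT livers (adjusted p = 1.03e-07). The exons of Lats2 overlap those of Gm49361 on the same strand in the annotation, so reads there could belong to either.

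Tead1, one of the DNA-binding partners of YAP and TAZ, had 17.6, 15.7, 13.1, 15.9 and 15.2 CPM in K556R refed livers, against 28.6, 26.1, 23.7, 31.3 and 27.9 CPM in K556R fasted livers. In WT refed livers it had 15.9, 20.9, 13.8, 18.3 and 16.0 CPM, against 23.8, 19.4, 30.5, 17.8 and 24.9 CPM in WT fasted livers. The K556R groups did not overlap, while WT refed 1_b2 and 3_b1 exceeded WT fasted 3_b1. Because Tead1 was chosen by its levels in these libraries, the p-values that follow are not independent of that choice. Tead1 changed by −0.83 ± 0.14 log2 in K556R (adjusted p = 8.61e-05) and by −0.46 ± 0.13 in WT livers (adjusted p = 0.00763). The difference between these changes, −0.37 ± 0.19 log2, did not pass the test (adjusted p = 0.9997). Within batch 1 the WT change was −0.60, and in batch 2, with 1 refed and 1 fasted WT library, it was 0.11 (adjusted p = 0.642).

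Tead2 and Tead3, the other 2 TEAD genes tested, did not pass in either genotype. Tead2 averaged 0.639 ± 0.148 CPM in K556R refed and 0.730 ± 0.080 CPM in K556R fasted livers, and 0.667 ± 0.159 CPM in WT refed and 0.586 ± 0.087 CPM in WT fasted livers (SD, n = 5 each). The ends of Tead2 and of Cd37, on the opposite strand, overlap by a few bases of exon. Tead3 averaged 8.65 ± 1.33 CPM in K556R refed and 9.01 ± 1.36 CPM in K556R fasted livers, and 8.43 ± 0.745 CPM in WT refed and 8.92 ± 0.343 CPM in WT fasted livers, with log2 changes of −0.04 ± 0.11 and −0.08 ± 0.11.

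**Figure D3:**
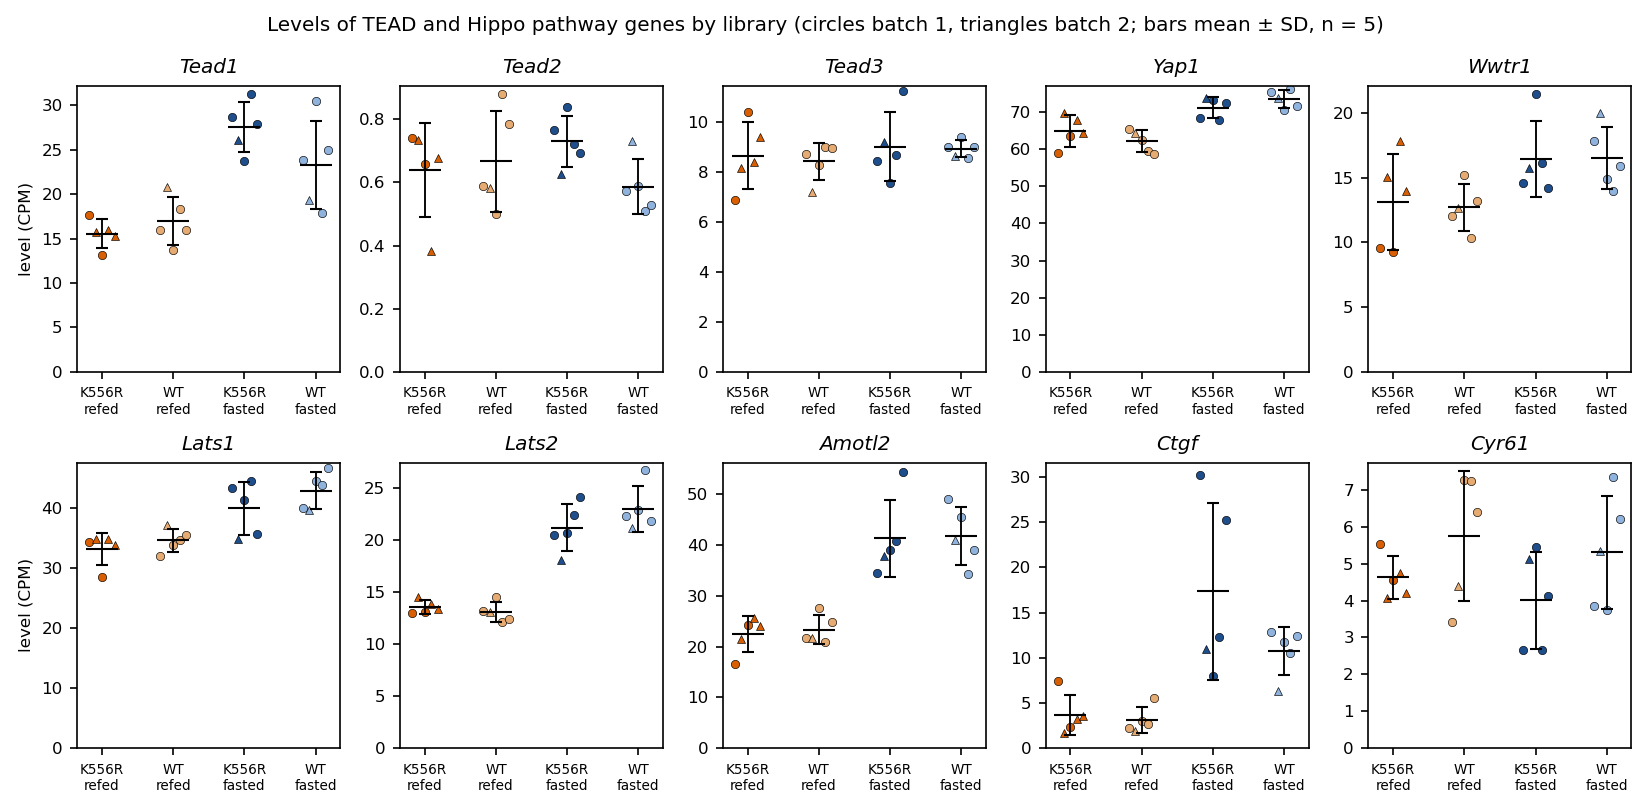
Level (CPM, vertical axis) of each gene in every library, with circles for batch 1, triangles for batch 2 and bars for the mean ± SD (n = 5 per group). Within each genotype Ctgf, Amotl2, Lats2 and Lats1 lie lower in refed than in fasted livers without overlap, while Tead2, Tead3 and Cyr61 overlap between feeding states.

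Of the coactivators, Yap1 changed least of the 7 genes that passed. It averaged 64.9 ± 4.22 CPM in K556R refed and 71.2 ± 2.83 CPM in K556R fasted livers, a log2 change of −0.16 ± 0.052 (adjusted p = 0.0162). In WT refed livers it averaged 62.2 ± 2.98 CPM, against 73.5 ± 2.37 CPM in WT fasted livers, a change of −0.24 ± 0.049 (adjusted p = 0.000443). The WT groups did not overlap. The K556R call was lost in 9 of 34 alternatives. These were K556R refed 1_b1 left out (−0.13, adjusted p = 0.0735), batch 2 alone (−0.12, 0.395) and 7 others with adjusted p = 0.0538 to 0.0931, among them limma and a replicate block. In WT livers the change was −0.25 within batch 1 and −0.19 within batch 2 (adjusted p = 0.359).

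Wwtr1 had 9.54, 15.05, 9.22, 17.9 and 13.99 CPM in K556R refed livers, against 14.6, 15.8, 21.5, 16.1 and 14.2 CPM in K556R fasted livers. The 2 K556R refed libraries of batch 1 were the low ones and of the 3 in batch 2, those at 15.05 and 17.9 CPM lay within the fasted range and that at 13.99 CPM just below it. The log2 change was −0.48 ± 0.16 (adjusted p = 0.0209) over both batches, −0.82 within batch 1 and −0.002 within batch 2 (adjusted p = 0.994). WT refed livers averaged 12.7 ± 1.79 CPM and WT fasted livers 16.5 ± 2.43 CPM, a change of −0.37 ± 0.15 (adjusted p = 0.045). Of 34 alternatives, 19 lost the WT call, among them batch 1 alone (−0.30, adjusted p = 0.108), and 8 lost the K556R call. This WT call was lost without any 1 of 11 libraries (adjusted p = 0.0517 to 0.139): 1_b1, 1_b2, 3_b1 or 4_b1 of WT refed, 1_b1, 1_b2, 2_b1 or 4_b1 of WT fasted, 1_b2 or 3_b2 of K556R refed, and 3_b1 of K556R fasted. The K556R call was lost without K556R fasted 2_b1, K556R refed 1_b1 or K556R refed 2_b1 (0.0524 to 0.111).

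Lats1, the other LATS kinase, averaged 33.2 ± 2.68 CPM in K556R refed and 39.9 ± 4.43 CPM in K556R fasted livers, a log2 change of −0.26 ± 0.083 (adjusted p = 0.0157). WT refed livers averaged 34.6 ± 1.91 CPM and WT fasted livers 42.9 ± 3.02 CPM, a change of −0.31 ± 0.077 (adjusted p = 0.00281). The refed and fasted libraries did not overlap in either genotype, although K556R refed 1_b2 (34.7 CPM) and K556R fasted 1_b2 (34.8 CPM) nearly met. Without K556R refed 2_b1 the K556R change was −0.16 (adjusted p = 0.125). Within batch 1 the change was −0.39 in K556R and −0.36 in WT livers, and within batch 2 it was −0.009 (adjusted p = 0.963) and −0.08 (0.727), so neither call held in batch 2.

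Cyr61, like Ctgf a secreted protein of the CCN family and a common YAP readout, did not pass the test for refeeding. It had 5.53, 4.08, 4.57, 4.76 and 4.20 CPM in K556R refed livers, against 2.67, 5.13, 5.45, 2.66 and 4.13 CPM in K556R fasted livers. In WT refed livers it had 3.41, 4.40, 7.27, 7.24 and 6.40 CPM, against 3.86, 5.34, 3.76, 7.35 and 6.20 CPM in WT fasted livers. The groups overlapped, and the log2 changes were 0.23 ± 0.25 (adjusted p = 0.510) in K556R and 0.12 ± 0.24 (adjusted p = 0.723) in WT livers. Both values lie above 0, while those of Ctgf lie far below it.

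Markers of liver cell types were read beside these changes. Over all genes refeeding called 19.6% higher and 20.3% lower in K556R, and 20.9% higher and 24.2% lower in WT livers. The counts for each cell type are to be read beside these shares. Of 12 hepatocyte markers, 4 were lower in K556R, and 4 were lower and 1 higher in WT refed livers, with 10 of the 12 below 0 in each. Hnf4a, a transcription factor of hepatocytes, had log2 changes of −0.80 ± 0.070 in K556R and −0.73 ± 0.066 in WT livers. The summed hepatocyte level ranged from 128056 to 144609 CPM in K556R refed and 158611 to 165732 CPM in K556R fasted livers, without overlap, and from 132103 to 139286 CPM in WT refed and 132331 to 177087 CPM in WT fasted livers. Of 13 sinusoidal endothelial markers, 4 were lower in K556R and 6 in WT refed livers and none higher, led by Stab1 (−0.79 ± 0.15 and −0.85 ± 0.14 log2). Their summed level ranged from 215 to 271 CPM in K556R refed and 261 to 302 CPM in K556R fasted livers, and from 218 to 239 CPM in WT refed and 193 to 317 CPM in WT fasted livers. Of 13 stellate and fibroblast markers, 3 were higher and 1 lower in K556R and 1 was higher in WT livers, with sums of 271 to 331 CPM in K556R refed, 228 to 423 CPM in K556R fasted, 209 to 350 CPM in WT refed and 236 to 335 CPM in WT fasted livers. Of 8 cholangiocyte markers tested of 10, 1 was higher and 1 lower in K556R and 2 were higher and 1 lower in WT livers, with sums of 49.9 to 66.1 CPM in K556R refed, 43.0 to 61.1 CPM in K556R fasted, 49.6 to 57.7 CPM in WT refed and 42.8 to 52.2 CPM in WT fasted livers. The cholangiocyte marker Cftr was near 0 (mean 0.120 CPM). None of 10 Kupffer cell markers passed in either genotype. All 10 lay above 0 in K556R (median log2 change 0.22) and all 10 below 0 in WT livers (−0.39). Their sums were 98.4 to 205 CPM in K556R refed, 104 to 133 CPM in K556R fasted, 83.3 to 136 CPM in WT refed and 56.6 to 312 CPM in WT fasted livers. The part of cell composition in the Hippo gene changes was not tested.

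Other genes of the pathway were read from lists, beside the shares of all genes that refeeding called (19.6% higher and 20.3% lower in K556R, 20.9% higher and 24.2% lower in WT livers). Of 24 tested of 25 upstream genes (MST kinases, their scaffolds, MOB coactivators and kinases that act beside them), 4 were higher and 9 lower in K556R refed livers, and 3 were higher and 12 lower in WT refed livers. Their median log2 change was −0.16 in K556R and −0.21 in WT livers. Sav1, the scaffold of the MST kinases, was lower by a log2 change of −0.52 ± 0.052 in K556R and −0.46 ± 0.050 in WT livers. Rassf1, which binds the MST kinases, was lower (−0.69 ± 0.11 and −0.76 ± 0.10). Wwc1, also called KIBRA, which helps activate LATS, was higher (0.99 ± 0.12 and 0.77 ± 0.11), as was Stk38l, a kinase related to LATS (0.65 ± 0.10 and 0.73 ± 0.098). Without K556R refed 2_b1 or K556R fasted 1_b2 the count of higher upstream genes in K556R livers was 2.

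Of 17 tested of 22 adaptors and cofactors that act on LATS, YAP or TAZ, 1 was higher and 6 lower in K556R refed livers and 2 were higher and 8 lower in WT refed livers (median log2 change −0.17 in K556R and −0.23 in WT). Jub, the LIM protein Ajuba that restrains LATS, was higher, by 1.24 ± 0.22 log2 in K556R and 1.71 ± 0.23 in WT livers. Stk24, an MST-related kinase, was lower (−0.43 ± 0.070 and −0.55 ± 0.066), as was Strn3, a striatin of the phosphatase complex that opposes the MST kinases (−0.41 ± 0.088 and −0.54 ± 0.083). The count of higher adaptors in WT livers was 1 without any 1 of 8 WT libraries (fasted 1_b1, 2_b1, 3_b1 and 1_b2, and refed 1_b1, 3_b1, 4_b1 and 1_b2).

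YAP and TAZ target genes other than the 4 described above (Ctgf, Cyr61, Amotl2 and Lats2) were set beside all genes, of which refeeding called 39.9% in K556R and 45.1% in WT livers. Of 15 tested of 18, 2 were higher and 2 lower in K556R refed livers and 3 were higher and 3 lower in WT refed livers, with median log2 changes of 0.06 and −0.02. Gadd45a, a growth arrest and DNA damage gene, was higher (2.10 ± 0.20 and 1.84 ± 0.19), as was Nt5e, the ectoenzyme that makes adenosine (0.42 ± 0.16 and 1.25 ± 0.16). Crim1, a transmembrane protein that binds growth factors, was lower (−0.39 ± 0.10 and −0.74 ± 0.10). The count of higher targets in K556R livers was 1 without any 1 of 7 libraries: 1_b1, 1_b2 or 2_b2 of K556R refed, 3_b1 or 4_b1 of K556R fasted, 1_b2 of WT refed and 1_b2 of WT fasted.

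Actin and immediate-early genes, read here because Ctgf and Cyr61 also respond to the actin-regulated factor SRF, made up the last list. Of 13 tested of 16, 4 were higher and 2 lower in K556R refed livers, and 3 were higher and 4 lower in WT refed livers. The cytoplasmic actins Actg1 (2.56 ± 0.18 and 2.20 ± 0.17 log2) and Actb (1.65 ± 0.16 and 1.56 ± 0.16) and the actin linker Vcl (0.62 ± 0.080 and 0.64 ± 0.075) were higher. Jun, a subunit of AP-1, was lower (−1.62 ± 0.34 and −1.91 ± 0.32).

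Genotype was read from K556R against WT livers, which use the same 20 libraries as the refeeding comparisons. Prox1 RNA itself was lower in K556R livers in the mean of both feeding states (log2 difference −0.72 ± 0.10, adjusted p = 0.0056). AK083547 was higher in that mean (1.05 ± 0.12, adjusted p = 0.0012). Neither passed within a single feeding state. For Prox1 the log2 difference was −0.61 ± 0.15 in refed (adjusted p = 0.559) and −0.82 ± 0.14 in fasted livers (0.0666). For AK083547 adjusted p was 0.191 and 0.0666. Neither call in the mean held without both libraries that stood apart and WT fasted 1_b2. With Prox1 RNA measured lower in K556R livers, the genotype comparisons cannot tell loss of the SUMO site from a lower Prox1 RNA level. None of the 10 genes passed the test in refed livers, in fasted livers, in the mean of both, or in the interaction of genotype and feeding. The share of all genes called by edgeR was 0% in refed livers, 0% in fasted livers, 0.0288% in the mean and 0% in the interaction. At an unadjusted p under 0.05 none of the 10 passed in refed livers (4.99% of all genes), in fasted livers (8.18%) or in the interaction (3.98%), and 1 passed in the mean (9.27%). None was free of overlap between genotypes in either feeding state, against 0.619% of all genes in refed and 0.914% in fasted livers. Over all genes DESeq2 called 6 in refed livers, 68 in fasted livers, 41 in the mean and 1 in the interaction, and limma 0, 2, 6 and 0, with none of the 10 genes among them.

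**Figure D4:**
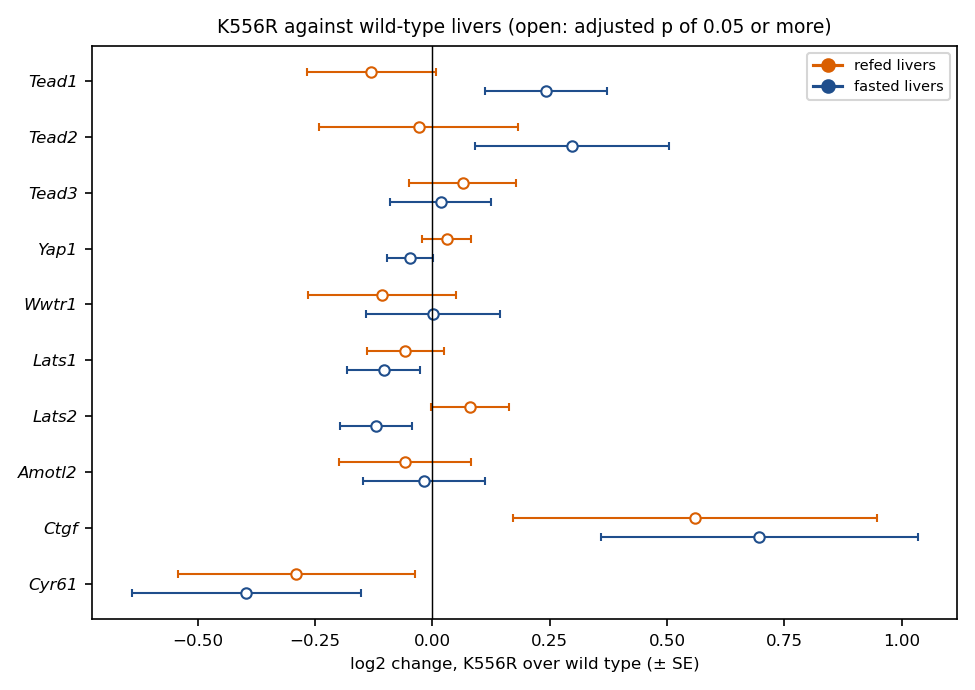
Log2 change of each gene in K556R over wild-type livers (horizontal axis, ± SE), in refed (orange) and fasted (blue) livers. All points are open, with an adjusted p of 0.05 or more, and Ctgf lies farthest right at 0.56 and 0.70.

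Ctgf was the 1 gene at an unadjusted p under 0.05 in the mean. It averaged 3.67 ± 2.25 CPM in K556R refed and 3.10 ± 1.45 CPM in WT refed livers, and 17.3 ± 9.75 CPM in K556R fasted and 10.8 ± 2.65 CPM in WT fasted livers (SD, n = 5 each). The log2 difference was 0.56 ± 0.39 in refed livers (adjusted p = 0.965), 0.70 ± 0.34 in fasted livers (adjusted p = 0.621) and 0.63 ± 0.26 in the mean (adjusted p = 0.452). Stellate and fibroblast markers stood higher beside it, 12 of 13 above 0 in the mean with a median log2 difference of 0.17 and none called. They were not alone in this. Proliferation markers had 12 of 12 above 0 (median 0.48), lymphocyte markers 6 of 7 (0.57) and cholangiocyte markers 6 of 8 (0.18). Hepatocyte markers had 7 of 12 above 0 (0.03) and mesothelial markers 2 of 6 (−0.10). None of these was called, and the part of any cell type in the Ctgf difference was not tested. With both libraries that stood apart left out, the mean difference was 0.29 ± 0.26 log2 (adjusted p = 0.709).

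For the other genes the interval of the genotype difference shows what size the data allow. In the mean of both feeding states the 95% interval of the log2 difference ran from −0.08 to 0.06 for Yap1, −0.13 to 0.09 for Lats2 and −0.19 to 0.03 for Lats1. It ran from −0.13 to 0.24 for Tead1, −0.15 to 0.42 for Tead2 and −0.11 to 0.19 for Tead3. It ran from −0.26 to 0.16 for Wwtr1, −0.23 to 0.15 for Amotl2 and −0.69 to 0.00 for Cyr61.

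The pathway lists did not pass by genotype either, with 0 of the upstream, adaptor or target genes called in refed or fasted livers. The lowest p among the YAP and TAZ targets in fasted livers was that of Nt5e, 0.85 ± 0.16 log2 higher in K556R than in WT fasted livers without overlap (adjusted p = 0.110).

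Tead1 was described beside Prox1 and AK083547 as deviations of log2 CPM after removal of group and batch means, over the 20 libraries. AK083547 averaged 66.9 ± 11.7 CPM in K556R refed and 30.2 ± 7.53 CPM in WT refed livers, and 87.4 ± 11.5 CPM in K556R fasted and 41.9 ± 10.6 CPM in WT fasted livers. The choice of genes took AK083547 as a clone transcript of Prox1, but no table used here gives it a position to check this. Its values and those of Prox1 may therefore not describe separate genes. AK083547 deviated together with Prox1 (r = 0.896, rho = 0.841), at 0.943 within batch 1 and 0.548 within batch 2. The r values of Tead1 with AK083547 and with Prox1 are therefore not independent of each other. Tead1 and AK083547 deviated together (Pearson r = 0.882, Spearman rho = 0.883), at 0.870 within batch 1 and 0.967 within batch 2, and of 13893 other genes AK083547 ranked 1 for Tead1. Without the 2 libraries farthest from the median of AK083547, r was 0.864. Tead1 was chosen for this covariation in these same libraries, so its rank and r follow from the choice and lend it no support. With Prox1 itself Tead1 had r = 0.786 (rho = 0.744), 0.856 within batch 1, 0.446 within batch 2 and 0.727 without the 2 farthest libraries. The 1st and 99th percentiles of r with Tead1 over all genes were −0.63 and 0.64.

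**Figure D5:**
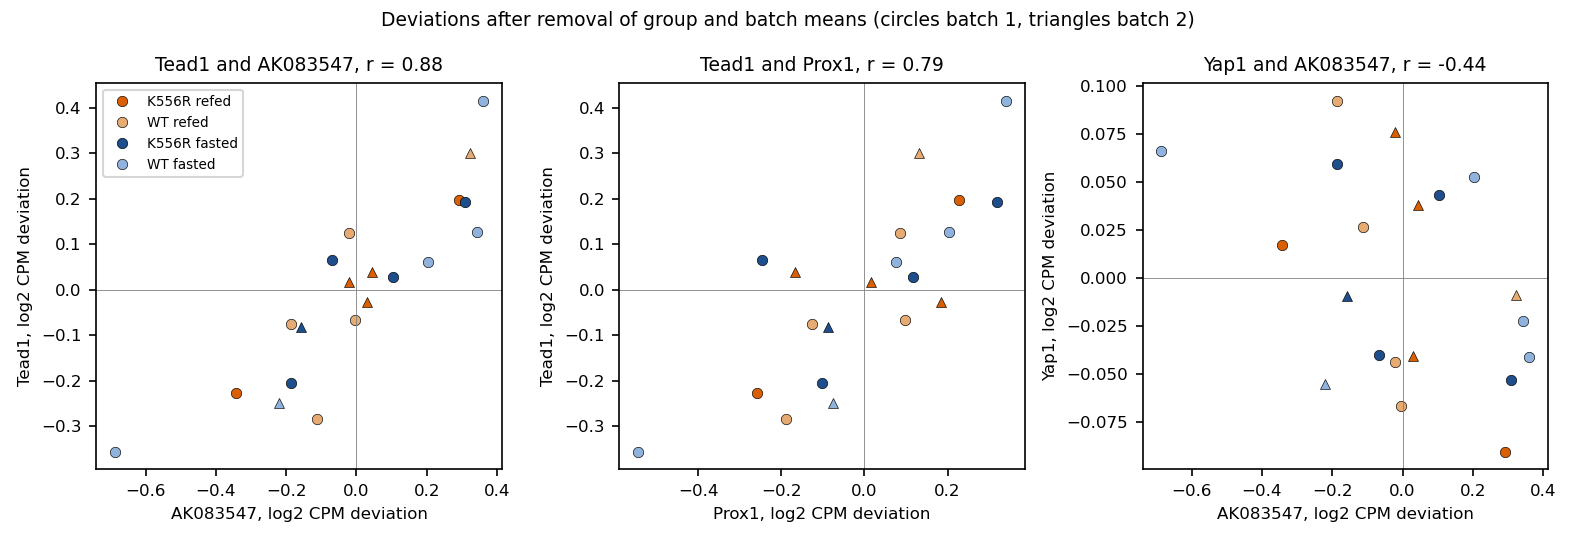
Deviation of log2 CPM from group and batch means in 20 libraries, for Tead1 against AK083547 (left), Tead1 against Prox1 (middle) and Yap1 against AK083547 (right), with circles for batch 1 and triangles for batch 2. Tead1 follows AK083547 (r = 0.88) and Prox1 (r = 0.79), and Yap1 has r = −0.44 (−0.58 within batch 1 and 0.20 within batch 2).

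The 5 named genes most like Tead1 by this measure, among those with a mean of at least 1 log2 CPM, were Ankrd44 (r = 0.847), Zfp709 (0.845), Ptprj (0.794), Zfp266 (0.793) and Mphosph8 (0.790). None belongs to the Hippo lists. Within the pathway Lats1 (0.467) and Ctgf (0.306) had the highest r with Tead1, and Cyr61 (−0.493) and Yap1 (−0.415) the lowest, all inside the percentiles above. Within batch 1 and batch 2 the r was 0.378 and 0.739 for Lats1, 0.360 and 0.046 for Ctgf, and −0.473 and −0.616 for Cyr61. For Yap1 it was −0.628 and 0.359, so its sign differed between batches. The libraries share depth and batch, and genes are not independent of each other.

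The other 9 genes were tested for an association with the Prox1 level of the library, in a model with group, batch and the log2 CPM of Prox1. None passed, against 0.0072% of 13893 genes, which is AK083547 alone, and none of the 9 had an unadjusted p under 0.05, against 5.36%. The count over all genes was 23 with both libraries that stood apart left out, 8 without K556R refed 1_b1, 5 without K556R fasted 1_b1, 2 without K556R fasted 4_b1 and 0 without WT fasted 3_b1, and none of the 9 genes was called in any of these. The slopes were −0.13 ± 0.078 log2 per log2 unit of Prox1 for Yap1 (adjusted p = 0.965), −0.54 ± 0.39 for Cyr61 (0.981), 0.40 ± 0.59 for Ctgf (0.982) and 0.15 ± 0.12 for Lats1 (0.981). The slope of Tead1 was 0.71 ± 0.15, given as a description because its covariation chose it.

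The genes lie, on GRCm38, at chr7:112679318-112906807 (Tead1), chr7:45215753-45233644 (Tead2), chr17:28331671-28350817 (Tead3), chr9:7931999-8004596 (Yap1) and chr3:57455649-57575910 (Wwtr1). The kinases lie at chr10:7681214-7716460 (Lats1) and chr14:57689662-57758388 (Lats2), and the targets at chr9:102716672-102733418 (Amotl2), chr10:24595442-24598683 (Ctgf) and chr3:145646976-145649981 (Cyr61). Antisense models overlap exons of Yap1 (Gm20416) and Ctgf (Gm15270), and without a known strand setting reads in the overlaps cannot be told apart.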

How the data were processed

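The deposited table holds raw read counts per gene for 20 liver libraries, made by the authors. The submitters' processing notes name build mm10 and the tools TopHat, STAR, STAR-Fusion, HTSeq, edgeR and DESeq2; which of them counted, with what annotation and which strand option, is not given in the sources used here. The 10 genes and all gene lists were chosen with earlier results of these data known. Group and batch were terms of a single fit of all 20 libraries by the quasi-likelihood F test of edgeR 4.0.16 (R 4.3.3; filterByExpr with minimum count 10 and minimum total 15, TMM, robust), with Benjamini-Hochberg adjustment over 13894 genes and a threshold of 0.05. Levels are CPM with TMM library sizes, log2 CPM uses a prior count of 2, and intervals are 1.96 SE. GENCODE M21 (GRCm38) gave gene positions and exon lengths. Named genes are the 10, Prox1, AK083547, up to 4 lowest-p members of each list, up to 3 of each marker list, the 5 nearest to Tead1 and the extremes within the pathway; the feeding genes were named after their values were seen, and some are not reported here. Alternatives used DESeq2 1.42.0, limma 3.58.1, other scalings, filters, batches and left-out libraries. The tests were tried on simulated counts.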

Additional observations from a re-analysis of the deposited data

Results flagged for a closer look

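In 40 groups of 5 libraries (10 genes in 4 groups), 3 held a library whose gap to the nearest other was over 0.71 of the group's range, where chance gives about 1 group in 20. Tead2 was at 0.382 CPM in K556R refed 2_b2, the lowest of that group. Wwtr1 was at 21.5 CPM in K556R fasted 2_b1, the highest of its group, and its K556R refeeding call was lost without that library. Lats1 was at 28.4 CPM in K556R refed 2_b1, the lowest of its group, and its K556R refeeding call was lost without that library.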

How the results depend on the processing

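Ctgf, Amotl2, Lats2 and Tead1 were called lower in both genotypes in every alternative counted, with batch 2 alone left out of the count. In batch 2 alone the log2 change of Amotl2 was −0.67 in K556R and −0.91 in WT livers. That of Lats2 was −0.37 and −0.68. Batch 2 alone holds 1 library in each group but K556R refed, and a lone library is assumed to vary like the others. There 4 of the 10 genes were called in K556R refeeding and 2 in WT refeeding, Ctgf was at −1.72 in WT livers (adjusted p = 0.0945), and Tead1 in WT livers reversed to 0.11. Leaving out each library gave 5 to 7 genes in K556R and 6 to 7 in WT refeeding. Without the 2 libraries set apart the counts were 5 in K556R and 7 in WT. Repeat numbers were checked for pairing in batch 1, where 4 of 18 same-number and 9 of 54 different-number pairs had r above 0.1. The highest r, 0.632, was between K556R fasted 1_b1 and K556R refed 1_b1, the libraries set apart. The 2 K556R refed libraries of batch 1 have mirrored deviations, so this check cannot exclude pairing. A replicate block gave 5 in K556R and 7 in WT refeeding and 0 by genotype. Of 476 alternatives of the 14 called changes, 432 kept direction and call, 43 lost the call and 1 reversed, and the cause was not tested. For genotype, interaction and the Prox1 level 0 of the genes were called in all settings run, though over all genes batch 2 alone called 12 in refed livers, 220 in fasted livers, 156 in the mean and 21 in the interaction, and DESeq2 called 43 for the Prox1 level. The Prox1 association was not run in batch 2 alone. Of 1538 alternatives of the 46 uncalled changes, 114 changed sign without a call. Tead2 had 17 to 40 reads per library. Over all genes the genotype mean had 4 calls, 13 without K556R fasted 2_b1 and 0 without the 2 libraries set apart and WT fasted 1_b2.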

Other observations

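Deviations from group and batch means, over 20 libraries, show how the 10 genes varied with each other beyond feeding and genotype. Of 45 pairs, 2 had a Pearson r over 0.5: Tead3 with Amotl2 (r = 0.658, Spearman rho = 0.459) and Yap1 with its inhibitor Lats2 (r = 0.512, rho = 0.525). Tead3 with Lats1 had the lowest r (−0.582, rho = −0.639). Ctgf and Yap1 had r = −0.496 (rho = −0.399). These pairs were chosen after their values were seen and were not tested, and they share library and depth.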
